A study of Drosophila melanogaster with 12 samples.

Results

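The 9 germline genes described here were bag of marbles (bam), benign gonial cell neoplasm (bgcn), vasa (vas), oskar (osk), polar granule component (pgc), nanos (nos), oo18 RNA-binding (orb), bicoid (bcd) and gurken (grk). They were chosen by symbol, as genes of germ cell differentiation and oocyte patterning, from the 17714 gene rows of a normalised count table of adult female Drosophila melanogaster. All 9 were found, and all 9 passed the filter on low values that left 11403 genes to test (3 or more libraries at a normalised count of 10 or higher).

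The study asked how loss of prothoracicotropic hormone (PTTH), the brain hormone that times metamorphosis, alters the adult transcriptome with age. Bulk poly(A) RNA of whole bodies was sequenced from young (1 week) and old (5 weeks) Ptth mutants, with the labelled genotype ptth120BC2, and from young and old wild type flies, labelled wOB. Each of the 4 groups had 3 biological replicates of about 15 flies. The study's text uses other names, Ptth120F2A for the mutant and w1118 for the control, and gives ages in days. It describes that mutant as a null allele with a short deletion in the last exon, made with TALENs and backcrossed, and the labels do not say whether ptth120BC2 is the same allele. In whole bodies, more or fewer germ cells of a stage and more or less RNA per cell cannot be told apart.

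In the fly ovary a germline stem cell divides to give a cystoblast, and bam is the switch that starts its differentiation. BMP signals from the niche keep bam silent in the stem cell, and the Bam protein works with Bgcn in the daughter. The cystoblast then forms a cyst of nurse cells and 1 oocyte, and the nurse cells load the oocyte with mRNAs that later pattern the embryo. Among these, bcd marks the anterior, osk builds the germ plasm at the posterior and recruits vas, nos and pgc products there, grk signals to the follicle cells, and orb controls when many of them are translated.

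Sequencing depth, recovered from the steps of the normalised counts, ran between 16448805 and 28206866 reads per library. Transcripts of a male reproductive tract list (25 genes in the table) summed to 8275 normalised counts in young Ptth mutant replicate 1, and to 6322 and 19784 in young wild type replicates 1 and 2. The highest sum in the other 9 libraries was 57.3. These 3 libraries stood apart from the other 9 along the leading principal component (79.2% of the variance), and the young changes of the 9 members are also given without them. That leaves 2 young mutant libraries and 1 young wild type library. Ptth mRNA averaged 23.1 ± 4.97 in young mutants and 33.6 ± 7.33 in young wild type, and 52.3 ± 7.81 in old mutants and 76.1 ± 0.776 in old wild type (normalised counts, SD, n = 3 each). If the labelled allele is a short exonic deletion, it can leave the mRNA in place, so this level does not check the labels.

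The germline markers vas, nos and osk were abundant in every library, as the labelled female whole body would have them. Divided by exon length, osk was the highest of the 9 at 7430 ± 713 normalised counts per kb (SD over the 12 libraries). Next came nos at 2813 ± 413 and pgc at 2758 ± 500, and nos was above pgc in 7 of 12 libraries. These neighbours did not differ beyond their spread. The per-kb level of vas was 1663 ± 161, of orb 966 ± 62.5, of bcd 769 ± 132 and of grk 412 ± 48.3. The differentiation genes were lowest, with bam at 248 ± 73.9 and bgcn at 7.47 ± 4.17 normalised counts per kb. The library ranges overlapped for nos and pgc, for pgc and vas, for orb and bcd, and for grk and bam. Without overlap, osk lay above nos, vas above orb, bcd above grk and bam above bgcn. Exon lengths include stretches shared with other genes, among them 78.5% of osk, 46.9% of pgc and 24.6% of vas. How reads there were counted is not known, which limits this order.

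**Figure D1:**
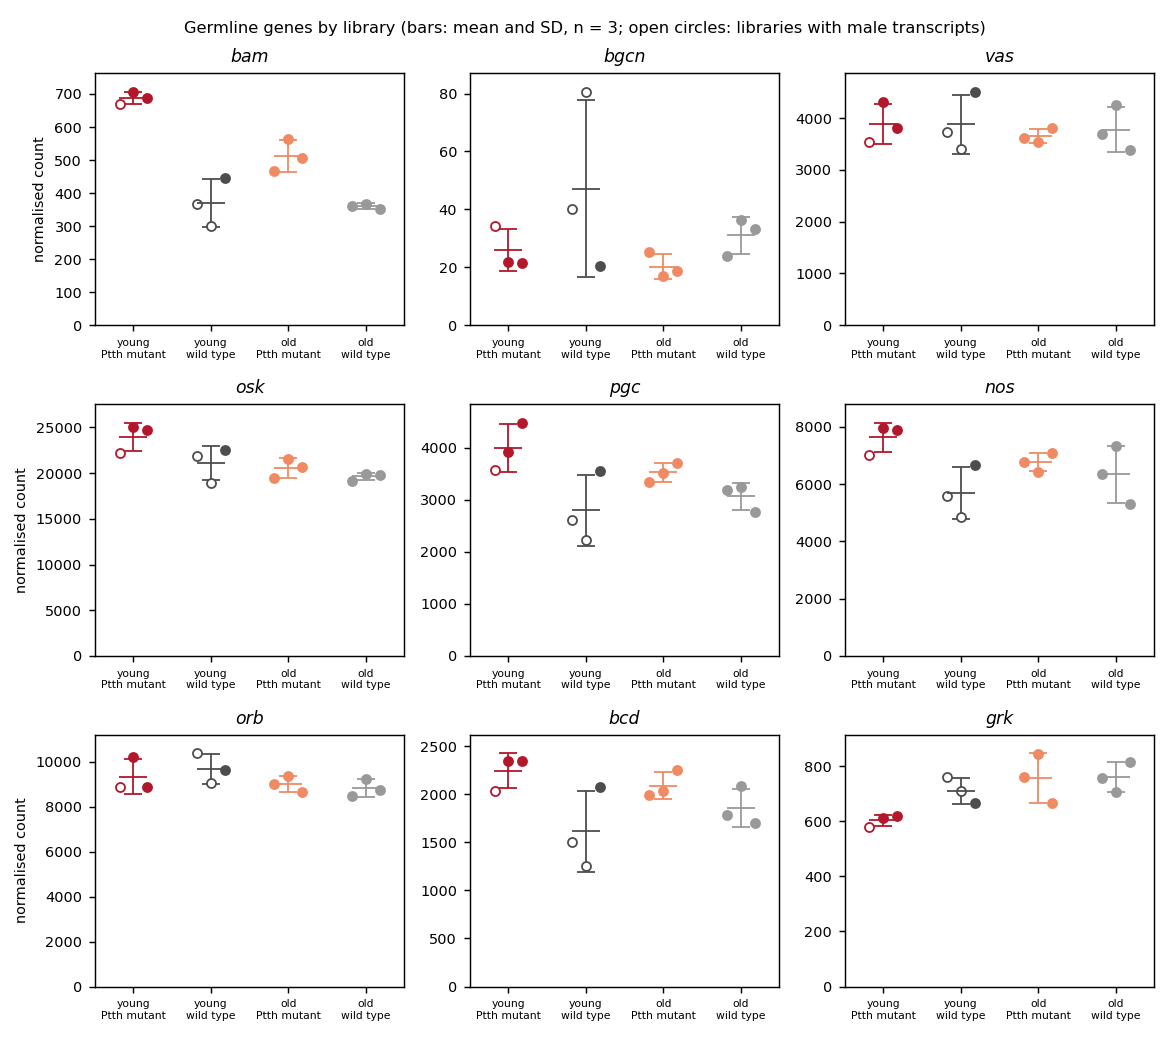
Normalised counts (y axis, from 0) of the 9 genes in each library (x axis: young Ptth mutant, young wild type, old Ptth mutant, old wild type), with the group mean and SD (n = 3) and open circles for the 3 libraries with male transcripts. The 3 young mutant points for bam sit between 669 and 706, above all young wild type points, which reach 445 at most.

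With all 12 libraries, the only member that passed both the adjusted p and the fold threshold was bam, which was higher in Ptth mutants. It had 669, 706 and 687 normalised counts in young Ptth mutants, against 366, 301 and 445 in young wild type flies. In old flies it had 468, 564 and 505 in mutants, against 362, 367 and 351 in wild type. At both ages every mutant library was above every wild type library. The group means were 688 ± 18.5 in young mutants and 371 ± 72.3 in young wild type, and 513 ± 48.3 in old mutants and 360 ± 8.42 in old wild type (SD, n = 3 each).

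By limma, with Benjamini-Hochberg adjustment over all tested genes and a call at adjusted p below 0.05 and a fold change above 1.5, bam rose in young mutants. Its log2 change was 0.91 ± 0.12 (SE), which is 1.88-fold (adjusted p = 8.94e-04). No other member was called in the young comparison, where 4.81% of all tested genes were called, 1.03% higher and 3.78% lower, and 6 of the 9 members against 32.4% of all genes had an unadjusted p below 0.05. Without the 3 libraries with male transcripts the log2 change was 0.65 and was no longer called (adjusted p = 0.0643, limma), with 2 mutant libraries at 706 and 687 and the remaining wild type library at 445. Over the other alternatives for processing and for left-out libraries, the log2 change lay between 0.77 and 1.05 and stayed called in each.

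In old flies the log2 change of bam was 0.50 ± 0.12, or 1.42-fold (adjusted p = 0.0313, limma), which was below the fold threshold. With each library left out in turn the adjusted p for old flies ran between 0.0048 and 0.150. No member was called in the old comparison by limma, edgeR or DESeq2, and 1 of 9, bam, had an unadjusted p below 0.05, against 16.5% of all tested genes. Called genes were 4.17% of those tested, 1.46% higher and 2.71% lower. For the mean of the young and old genotype changes in the same model (6 libraries a side), the log2 change of bam was 0.71 ± 0.09, or 1.63-fold (adjusted p = 2.13e-04), and no other member was called. Of all tested genes 5.45% were called for this mean, 1.44% higher and 4.02% lower, and 35.3% had an unadjusted p below 0.05, as did 5 of the 9 members. Leaving out the libraries with male transcripts gave a mean change of 0.57 for bam (adjusted p = 0.0060, limma), below the fold threshold.

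bam lies on chromosome 3R, 25243039 to 25245109 on the minus strand (BDGP6.54 annotation), with 3 exonic blocks over 1946 bp. Its exons share 224 bp, 11.5% of its exonic length, with CG11854 on the opposite strand. The strand setting of the read counting was not stated. CG11854 itself had between 3.05 and 14.5 normalised counts in the 12 libraries, far below bam.

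The level of bam relative to vas, a ratio within each library that does not depend on the scaling, separated the genotypes at both ages. The ratio was 0.189, 0.164 and 0.180 in young mutants, against 0.0983, 0.0882 and 0.0988 in young wild type. In old flies it was 0.130, 0.159 and 0.133 in mutants, against 0.0979, 0.0863 and 0.104 in wild type. All mutant libraries lay above all wild type libraries. On the log2 scale the difference in the ratio was 0.90 in young flies and 0.55 in old flies. Without the libraries with male transcripts it was 0.80 in young flies, with 1 young wild type library left. Against nos and bcd the gap was smaller. The mean log2 ratio of bam to nos was -3.47 in young mutants and -3.95 in young wild type. In old flies it was -3.73 in mutants and -4.13 in wild type. For bam to bcd it was -1.70 in young mutants and -2.11 in young wild type, and -2.03 in old mutants and -2.36 in old wild type.

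**Figure D2:**
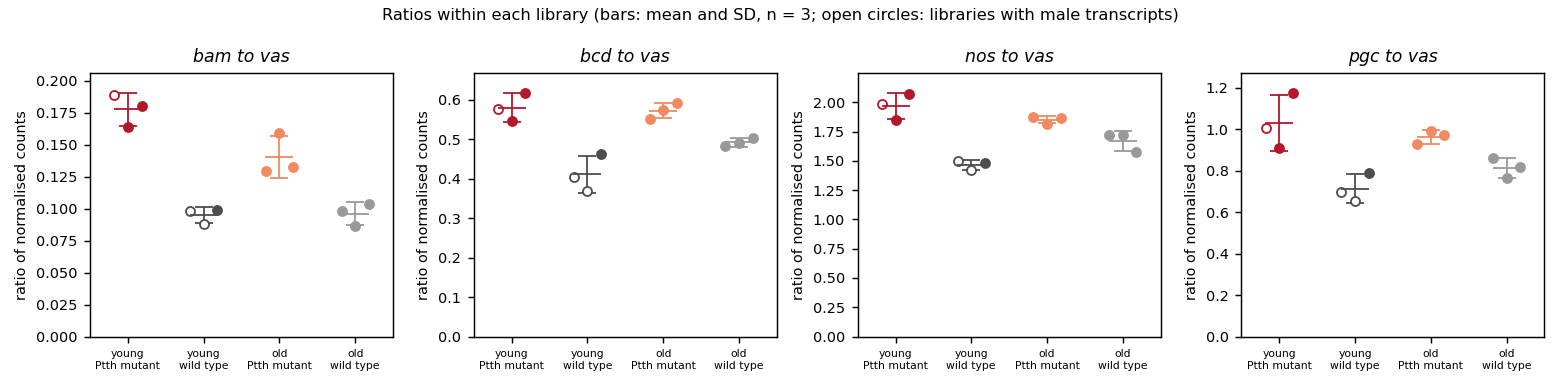
Ratios of normalised counts within each library (y axis, from 0) for bam, bcd, nos and pgc to vas in the 4 groups, with mean and SD (n = 3) and open circles for libraries with male transcripts. For bam the young mutant ratios lie between 0.164 and 0.189 and the young wild type ratios between 0.0882 and 0.0988.

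bgcn, which encodes a DExH-box-related protein that acts with Bam, was near the low end of the tested range and was not called. It had 34.2, 21.99 and 21.3 normalised counts in young mutants, against 40.3, 80.6 and 20.6 in young wild type. The highest value in each young group came from a library with male transcripts. In old flies it had 25.1, 16.9 and 18.6 in mutants, against 23.9, 36.3 and 33.1 in wild type, and these ranges overlapped. The log2 changes were -0.67 ± 0.42 in young flies (adjusted p = 0.273) and -0.60 ± 0.42 in old flies (adjusted p = 0.575, limma). Once the libraries with male transcripts were left out, the young log2 change was 0.07 (adjusted p = 0.986, limma). Quantile scaling gave 0.05.

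The plot of bgcn against the male list shows where these high values lie. The 3 libraries with male sums above 1000 had bgcn at 80.6, 40.3 and 34.2, and the other 9 had between 16.9 and 36.3. bgcn is also known from testis, where it acts in the male germline. The part of male transcripts in the bgcn values was not tested.

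**Figure D3:**
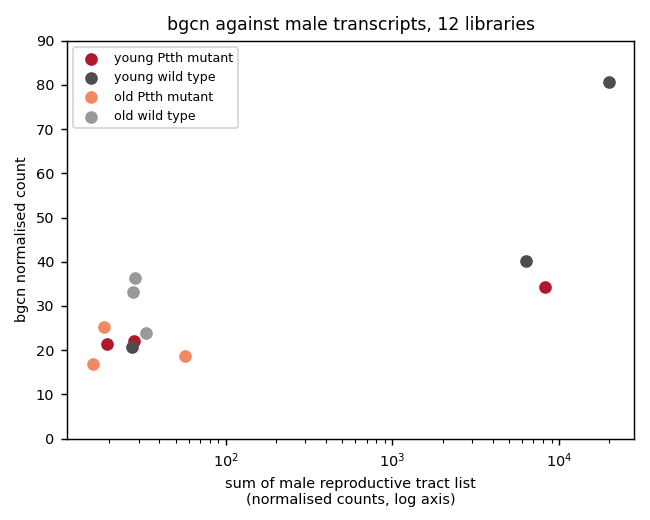
bgcn (y axis, normalised counts) against the summed male reproductive tract list (x axis, normalised counts, log axis) in the 12 libraries, coloured by group. Young wild type replicate 2, at a male sum of 19784, has the highest bgcn count, 80.6.

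Of the germ plasm genes, osk, which organises germ plasm assembly, had the highest counts of all members. It had 22151, 25044 and 24675 normalised counts in young mutants, against 21901, 18968 and 22489 in young wild type, with 1 mutant library below the highest wild type library. In old flies osk had 19410, 21571 and 20707 in mutants, against 19171, 19872 and 19846 in wild type. Its log2 changes, 0.18 ± 0.08 in young flies (adjusted p = 0.125) and 0.07 ± 0.08 in old flies (adjusted p = 0.802, limma), did not pass the test, and the young value was 0.14 without the male-transcript libraries (adjusted p = 0.603). Its row may also hold reads of lncRNA:osk, a same-strand gene of the later annotation that covers 78.5% of the exonic length of osk and has no row of its own in the table. It also shares 162 bp with asRNA:CR44020 on the opposite strand.

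vas, the DEAD-box RNA helicase of germ plasm and germ cells, had overlapping ranges in the 4 groups. It had 3540, 4311 and 3807 normalised counts in young mutants, against 3726, 3410 and 4506 in young wild type. The old libraries lay between 3541 and 3809 in mutants and between 3384 and 4256 in wild type. The log2 changes were 0.01 ± 0.11 in young flies (adjusted p = 0.966) and -0.04 ± 0.11 in old flies (adjusted p = 0.950, limma), and no change larger than the spread between libraries was found. The sign of the young value of vas turned with quantile scaling, germline scaling, edgeR and DESeq2, and without the male-transcript libraries (-0.15). 24.6% of its exonic length is shared with solo on the same strand, and solo averaged 69.2 ± 7.80 over the 12 libraries.

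pgc encodes a small protein that holds transcription down in the pole cells. It had 3566, 3915 and 4481 normalised counts in young mutants, against 2605, 2226 and 3557 in young wild type, and 3345, 3519 and 3707 in old mutants, against 3180, 3247 and 2770 in old wild type. No mutant library fell into the wild type range at either age, though in young flies the gap was between 3557 and 3566. The young log2 change of 0.53 ± 0.15 (adjusted p = 0.0434) and the mean over ages of 0.37 ± 0.10 (adjusted p = 0.0302, limma) were under the 1.5-fold threshold, and the old change was 0.20 ± 0.15 (adjusted p = 0.585). Setting aside the 3 libraries with male transcripts gave a young change of 0.24 (adjusted p = 0.571, limma).

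Exons of pgc share 569 bp, 46.9% of its exonic length, with T3dh on the opposite strand. T3dh averaged 205 ± 34.8 normalised counts in young mutants and 202 ± 11.9 in young wild type, well below pgc. Its own young log2 change was 0.01 ± 0.13 (adjusted p = 0.945, limma).

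nos, the translational repressor of the posterior embryo and of germline stem cells, showed a similar order of libraries. It had 7028, 7972 and 7889 normalised counts in young mutants, against 5585, 4845 and 6658 in young wild type, with no overlap. In old flies it had 6775, 6441 and 7094 in mutants, against 6361, 7334 and 5320 in wild type, where the mutant values fell within the wild type range. The log2 changes were 0.43 ± 0.13 in young flies (adjusted p = 0.0537) and 0.11 ± 0.13 in old flies (adjusted p = 0.804, limma). With only the young libraries free of male transcripts, the change of nos was 0.25 (adjusted p = 0.680, limma).

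Among the patterning genes, bcd encodes the anterior morphogen and is stored as mRNA in the egg. It had 2035, 2350 and 2350 normalised counts in young mutants, against 1505, 1257 and 2079 in young wild type, and 1991, 2032 and 2248 in old mutants, against 1783, 2080 and 1704 in old wild type. The highest wild type library overlapped the mutant range at each age. The log2 changes were 0.50 ± 0.15 in young flies (adjusted p = 0.0575), 0.17 ± 0.15 in old flies (adjusted p = 0.689) and 0.34 ± 0.11 as the mean over ages (adjusted p = 0.0478, limma), the last under the fold threshold. With the same libraries left out, the young change of bcd was 0.18 (adjusted p = 0.707, limma).

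Young wild type replicate 3, the young wild type library without male transcripts, had the highest count of its group for bam, vas, osk, pgc, nos and bcd, and the lowest for bgcn and grk. When this library is left out, 4 members are called in the young comparison by limma: bam (log2 change 1.05), pgc (0.72) and bcd (0.70) higher and bgcn (-1.14) lower, and 2265 genes in all are called against 549 with it. Without young mutant replicate 1, 2 members are called, bam and pgc (0.61), and 646 genes in all. The count of members called in young flies is thus 0, 1, 2 or 4 by which young libraries are kept.

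grk encodes the ligand by which the oocyte signals to Egfr on follicle cells and sets both body axes. It was the only member with all young mutant libraries below all young wild type libraries, with 580, 613 and 618 normalised counts in young mutants, against 760, 708 and 665 in young wild type. In old flies it had 761, 845 and 665 in mutants, against 756, 708 and 817 in wild type, which overlapped. The log2 changes were -0.23 ± 0.09 in young flies (adjusted p = 0.114) and -0.01 ± 0.09 in old flies (adjusted p = 0.994, limma), and the young value was -0.11 without the male-transcript libraries (adjusted p = 0.860). Its exons share 212 bp with Akap200 on the opposite strand, which is far more abundant at 13223 ± 777 normalised counts over the 12 libraries. Whether strand was used is not known, nor how reads of the shared stretch were counted.

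orb encodes a CPEB-family protein that promotes translation of stored mRNAs in the oocyte. It had 8881, 10235 and 8889 normalised counts in young mutants, against 10390, 9045 and 9635 in young wild type, and old libraries lay between 8672 and 9390 in mutants and between 8504 and 9258 in wild type. It varied least of the 9 over the 12 libraries, with a coefficient of variation of 6.47%. The log2 changes were -0.05 ± 0.07 in young flies (adjusted p = 0.592) and 0.03 ± 0.07 in old flies (adjusted p = 0.948, limma). Its young value was -0.015 without the male-transcript libraries.

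Set against vas, the maternal mRNAs bcd, nos and pgc were higher in mutants at both ages, without overlap between genotypes. The ratio of bcd to vas averaged 0.579 ± 0.0362 in young mutants and 0.411 ± 0.0468 in young wild type, and 0.572 ± 0.0193 in old mutants and 0.491 ± 0.0110 in old wild type. For nos to vas the means were 1.97 ± 0.113 in young mutants and 1.47 ± 0.0405 in young wild type, and 1.85 ± 0.0306 in old mutants and 1.67 ± 0.0864 in old wild type. For pgc to vas they were 1.03 ± 0.136 in young mutants and 0.714 ± 0.0694 in young wild type, and 0.965 ± 0.0341 in old mutants and 0.814 ± 0.0486 in old wild type (SD, n = 3 each). The ratios of osk, orb and grk to vas overlapped between the genotypes at both ages. Without division by vas, the counts of bcd overlapped between the genotypes at both ages, and those of nos overlapped in old flies. The share of all tested genes whose ratio to vas separates the genotypes was not computed, here or for bam. These ratios were set up with earlier results known and are given as a description without a test.

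Counted over the 9 genes, 3 (bam, pgc and nos) had all young mutant libraries above all young wild type libraries and 1 (grk) had all below. Over all tested genes, 11.6% lay wholly above and 13.7% wholly below, 25.3% in all. In old flies 2 members (bam and pgc) lay wholly above, against 11.5% of all genes above, 14.9% below and 26.4% in all. The median log2 change of the members was 0.18 in young flies and 0.07 in old flies, against -0.02 and 0.00 over all tested genes.

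**Figure D4:**
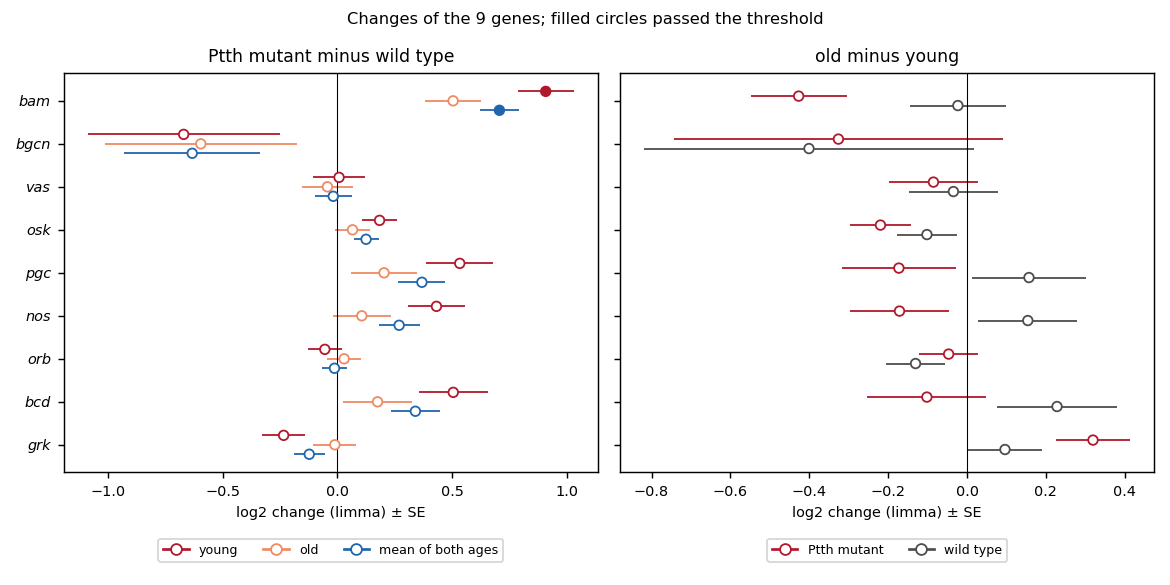
Log2 changes with SE from limma for the 9 genes, by genotype (left: young, old and the mean of both ages) and by age (right: Ptth mutant and wild type), with filled circles for changes that were called. bam in the young comparison (0.91) and in the mean of both ages (0.71) are the only called changes.

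With age, from young to old flies of 1 genotype, no member was called by limma, edgeR or DESeq2, where a call required a fold change above 2. Over all tested genes 1.81% were called in mutants by limma, 0.789% higher and 1.02% lower in old flies. In wild type 3.05% were called, 0.886% higher and 2.17% lower. In mutants 3 of the 9 had an unadjusted p below 0.05, against 16.2% of all genes. They were bam, with a log2 change of -0.43 ± 0.12 (adjusted p = 0.0667), grk at 0.32 ± 0.09 (adjusted p = 0.0771) and osk at -0.22 ± 0.08 (adjusted p = 0.145, limma). For these 3 genes the old and young mutant libraries did not overlap. Over all genes, old mutants lay wholly above young mutants for 13.2% and wholly below for 11.5%, 24.7% in all.

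In wild type 0 of the 9 had an unadjusted p below 0.05, against 25.7% of all genes, and for all 9 the old and young libraries overlapped, while 22.3% of all genes had no overlap (10.7% higher, 11.6% lower). The largest change by size was bgcn at -0.40 ± 0.42 (adjusted p = 0.541, limma). The log2 change of bam with age in wild type was -0.02 ± 0.12 (adjusted p = 0.912). With 1 young wild type library, when those with male transcripts are left out, it was -0.31 (adjusted p = 0.203, limma).

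The age change in mutants minus that in wild type was tested directly. For bam this interaction was -0.40 ± 0.17 on the log2 scale (unadjusted p = 0.0378, adjusted p = 0.703, limma). No member was called by limma, edgeR or DESeq2, and 1 of the 9 had an unadjusted p below 0.05, against 6.79% of all tested genes. The interaction was called for 0.158% of all tested genes by limma, 0.14% positive and 0.0175% negative. The smaller bam change in old than in young flies is therefore not shown to differ from the change in young flies beyond the error. Without the male-transcript libraries the interaction of bam was -0.14.

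Genes that act around the members were read from 8 lists with 123 tested genes in all. In young flies 95 of the 123 had a positive log2 change in mutants, with a median of 0.19. Of these list genes 53 positive and 11 negative changes had an unadjusted p below 0.05. Over all tested genes 47.3% had a positive change in young flies, and 32.4% had an unadjusted p below 0.05. None of the 123 was called higher and 3 were called lower by limma, and edgeR and DESeq2 called the same numbers. In old flies 91 of the 123 were positive with a median of 0.09, while 50.7% of all tested genes were positive. None of the 123 was then called higher and 1 was called lower by each of the 3 tools. The young median without the male-transcript libraries was 0.07, with 91 of 123 positive and none called by limma.

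The called genes were all in the list of the stem cell niche and the BMP signal upstream of bam (17 genes, 9 positive and 8 negative in young flies, of which 4 positive and 5 negative had an unadjusted p below 0.05). They were dpp, the BMP ligand that keeps bam off in stem cells, and hh and ptc, the ligand and the receptor of Hedgehog signalling. dpp had 290, 233 and 209 normalised counts in young mutants, against 472, 416 and 317 in young wild type. This was a log2 change of -0.71 ± 0.16 (adjusted p = 0.0212, limma), and all mutant libraries were below all wild type libraries. In old flies dpp had 254, 292 and 281 in mutants, against 321, 323 and 405 in wild type, again without overlap, with a log2 change of -0.34 (adjusted p = 0.332).

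hh had 57.7, 51.9 and 57.9 normalised counts in young mutants, against 111, 112 and 81.5 in young wild type, and 101, 115 and 105 in old mutants, against 209, 134 and 248 in old wild type. Its log2 change was -0.84 ± 0.21 in young flies (adjusted p = 0.0305) and -0.83 ± 0.21 in old flies (adjusted p = 0.0356, limma), so hh fell in mutants at both ages. ptc had 180, 195 and 163 in young mutants, against 445, 388 and 232 in young wild type (log2 change -0.93 ± 0.21, adjusted p = 0.0218, limma). In old flies ptc had 208, 217 and 238 in mutants, against 262, 267 and 372 in wild type, with a log2 change of -0.42 that was not called (adjusted p = 0.362, limma). In each of these comparisons, and in those of dpp, every mutant library was below every wild type library. Over all tested genes, mutants lay wholly below wild type for 13.7% in young flies and 14.9% in old flies. Mad, the transcription factor that BMP signals activate, was positive in young flies at 0.29 (adjusted p = 0.0445), and sax, a BMP receptor, at 0.28 (adjusted p = 0.0815, limma). Both were under the fold threshold. Other genes of the same list, gbb, tkv and Dad, were negative in young flies. In old flies Mad was at 0.10 and sax at 0.12, against -0.25 for gbb, -0.05 for tkv and -0.19 for Dad. None of these genes was called, and all were added after their values were seen.

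These calls depended on which libraries were kept. When the libraries with male transcripts were left out, the young log2 changes were -0.52 for dpp (adjusted p = 0.341), -0.56 for hh (adjusted p = 0.633) and -0.38 for ptc (adjusted p = 0.650, limma), so none was called. The old change of hh was the same with and without them (-0.83), since they are all young, and its adjusted p was 0.0828 in the fit without them. All 3 genes are also expressed outside the ovary, and the tissue of their change was not tested.

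**Figure D5:**
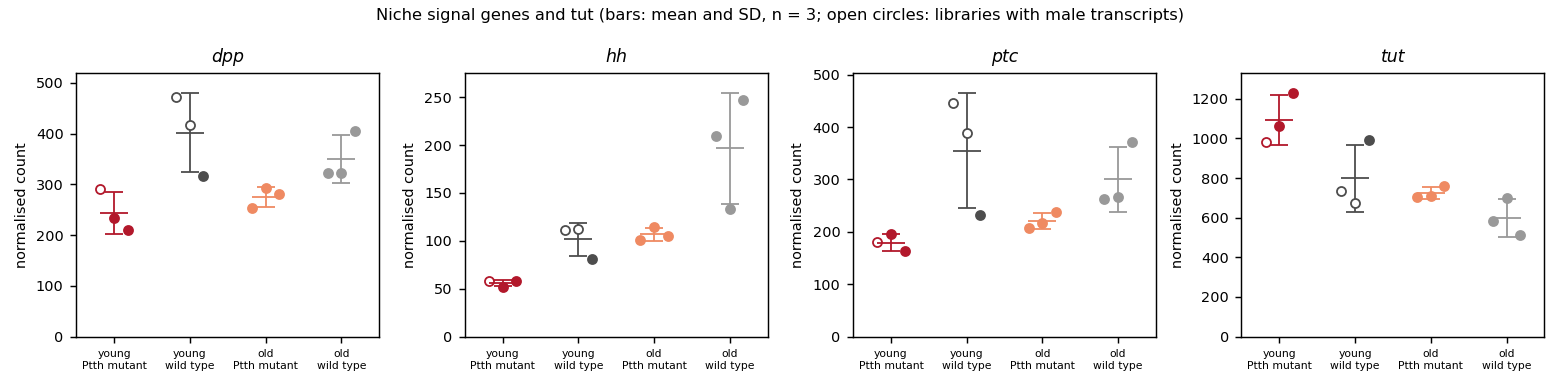
Normalised counts (y axis, from 0) of dpp, hh, ptc and tut in each library of the 4 groups, with mean and SD (n = 3) and open circles for libraries with male transcripts. The dpp points of young mutants, between 209 and 290, lie below those of young wild type, between 317 and 472.

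Of the 12 genes of cystoblast differentiation and Bam partners, 11 had positive changes in young flies (median 0.11) and none was called by limma, edgeR or DESeq2, with 4 positive and 1 negative at an unadjusted p below 0.05. The largest was tut, which encodes a partner of Bam and Bgcn in the male germline. It had 983, 1062 and 1231 normalised counts in young mutants, against 735, 672 and 990 in young wild type, which overlapped (log2 change 0.46 ± 0.15, adjusted p = 0.0680, limma). In old flies tut had 706, 710 and 759 in mutants, against 583, 698 and 511 in wild type. Phf7, which promotes the male germline programme, was at 0.43 on the log2 scale in young flies (adjusted p = 0.0680). Without the male-transcript libraries tut was at 0.21 (adjusted p = 0.774) and Phf7 at 0.18 (adjusted p = 0.761, limma).

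Egg activation and maternal cell cycle genes had the largest list median in young flies, 0.43 on the log2 scale, with 11 of 12 positive at an unadjusted p below 0.05 and none called by limma, edgeR or DESeq2. CycE, the cyclin of S phase entry, was at 0.55 ± 0.16 (adjusted p = 0.0590) and twe, the meiotic Cdc25 phosphatase, at 0.49 ± 0.15 (adjusted p = 0.0550, limma). In the fit without the male-transcript libraries the list median was 0.16, with CycE at 0.20 (adjusted p = 0.774) and twe at 0.20 (adjusted p = 0.690, limma). In old flies it was 0.18, with none at an unadjusted p below 0.05.

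Of the 17 germ plasm assembly genes, 14 had positive changes in young flies (median 0.18), 6 positive and 0 negative had an unadjusted p below 0.05, and none was called by the 3 tools. krimp, a Tudor-domain protein of the nuage, was at 0.64 ± 0.21 (adjusted p = 0.0698) and AGO3, a piRNA-pathway Argonaute, at 0.43 ± 0.12 (adjusted p = 0.0465, limma), under the fold threshold. Both were at 0.25 without the male-transcript libraries (adjusted p = 0.778 for krimp and 0.550 for AGO3). For mRNA transport and translation control 18 of 21 tested genes were positive (median 0.18), 10 positive and 1 negative had an unadjusted p below 0.05, and none was called by the 3 tools. The translational repressor smg was at 0.43 ± 0.15 (adjusted p = 0.0899, limma), and at 0.14 without those libraries (adjusted p = 0.874).

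The 19 axis genes had 14 positive changes in young flies (median 0.22), 9 positive and 2 negative at an unadjusted p below 0.05 and none called by the 3 tools. tor, the terminal-system receptor and also the PTTH receptor, was at 0.55 ± 0.13 (adjusted p = 0.0308), just under the 1.5-fold threshold, and at 0.23 without the libraries with male transcripts (adjusted p = 0.608). rho, the protease that activates Egfr ligands, was at -0.48 ± 0.16 (adjusted p = 0.0763, limma), and at -0.22 without them (adjusted p = 0.815). In the fusome and ring canal list 5 of 8 were positive, 2 positive and 1 negative had an unadjusted p below 0.05 and none was called by the 3 tools, with alpha-Spec, a fusome component, at -0.45 ± 0.11 (adjusted p = 0.0332, limma) and qua, an actin-binding protein of nurse cells, at 0.40 ± 0.13 (adjusted p = 0.0685). Without the male-transcript libraries alpha-Spec was at -0.37 (adjusted p = 0.567) and qua at 0.15 (adjusted p = 0.810, limma).

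Of 17 meiosis genes, 13 had positive changes in young flies (median 0.29), 7 positive and 1 negative had an unadjusted p below 0.05, and none was called by the 3 tools. The largest young change by size was vilya at -1.05 (adjusted p = 0.0646, limma), which was -1.56 without the male-transcript libraries (adjusted p = 0.0703) and 0.24 with quantile scaling. For the mean over ages vilya, a RING-domain protein of meiotic recombination sites, was called lower by limma (log2 change -0.74 ± 0.23, adjusted p = 0.0473) and by DESeq2 but not by edgeR. It had 16.6, 7.04 and 9.15 normalised counts in young mutants, against 19.5, 22.3 and 25.5 in young wild type, and 27.0, 18.9 and 18.6 in old mutants, against 28.7, 31.5 and 26.5 in old wild type. For the same mean, hh (-0.84) and ptc (-0.68) were also called lower. Without the male-transcript libraries vilya stayed called at -0.99 (adjusted p = 0.0203), and hh at -0.70 (adjusted p = 0.103) and ptc at -0.40 (adjusted p = 0.164, limma) did not.

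With age, none of the 123 genes was called in either genotype by limma, edgeR or DESeq2. In mutants 36 of 123 had a positive change, with a median of -0.05 on the log2 scale, and 5 positive and 4 negative had an unadjusted p below 0.05. In wild type 88 of 123 were positive, with a median of 0.06, and also 5 positive and 4 negative had an unadjusted p below 0.05. Over all tested genes 44.3% were positive with age in mutants and 55.7% in wild type. The shares of all tested genes at an unadjusted p below 0.05 were 16.2% in mutants and 25.7% in wild type. Leaving out the libraries with male transcripts left 29 of 123 positive in wild type, with a median of -0.10, and 1 meiosis gene was then called higher in old mutants by limma. The largest changes among the 123 in mutants were vilya (0.98 ± 0.33, adjusted p = 0.125) and hh (0.92 ± 0.21, adjusted p = 0.0206, limma), both below the 2-fold threshold. In wild type hh rose by a similar 0.91 ± 0.21 (adjusted p = 0.0172), and vilya was at 0.35 ± 0.33 (adjusted p = 0.488, limma).

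Marker lists outside the germline lists were also read by group. In young flies the follicle and yolk sums overlapped between genotypes, and in old flies both sums were higher in mutants without overlap. The follicle cell and eggshell list (17 genes) summed to between 140643 and 182019 normalised counts in young mutants and between 146129 and 242665 in young wild type, and to between 205531 and 288475 in old mutants and between 152524 and 193384 in old wild type. In old mutants 3 of its genes were called higher by limma. In young mutants none was called by limma, with 7 negative at an unadjusted p below 0.05, and DESeq2 called 2 lower. The yolk list (4 genes) summed to between 411542 and 435909 in young mutants and between 385028 and 587055 in young wild type, and to between 493477 and 620452 in old mutants and between 349931 and 470117 in old wild type. None of the 4 was called by the 3 tools, and 3 were positive at an unadjusted p below 0.05 in old flies.

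Zygotic genes of the blastoderm embryo (14 tested) were called lower in young mutants for 10, and for 5 without the libraries with male transcripts. bnk averaged 0.326 normalised counts in young mutants and 74.1 in young wild type, and Elba3 was at 0 in all 3 young mutant libraries and averaged 70.6 in young wild type. In old flies both averaged under 2 normalised counts in each genotype. The muscle list (18 genes) summed to between 162540 and 178813 in young mutants and between 179592 and 245764 in young wild type, with 2 genes called lower, and 0 by limma without the male-transcript libraries. The part of these cells in the values of the 9 germline genes was not tested.

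For each member, the 3 genes whose log2 values were most like it over the 12 libraries were looked up among 9200 genes with a mean normalised count of at least 50. These correlations are descriptions, and the points share libraries, depth and the male transcripts of 3 of them. bam was most like CG32512 (r = 0.949), the maternal thioredoxin gene dhd (0.949) and CG4238 (0.944). pgc was most like RPA2 (0.995), Df31 (0.988) and mtrm (0.988), and bcd most like MED19 (0.995), CG33156 (0.994) and Cdc6 (0.994). nos was most like CG7218 (0.986), APC7 (0.985) and Vlet (0.983).

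Matches of the other members were at 0.949 or lower. vas was most like LBR (0.949), rdgB (0.921) and olf186-F (0.920), osk most like BoYb (0.937) and zyd (0.923), and grk most like CG10189 (0.939), St1 (0.937) and CG42806 (0.914). bgcn was most like Lim1 (0.914), CG14995 (0.914) and Ant2 (0.911), and orb, with the flattest profile, most like CG13907 (0.870), CG18809 (0.848) and qin (0.842).

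By position, osk (8935126 to 8938395, plus strand), nos (19157238 to 19160202, plus strand), orb (23260610 to 23280856, minus strand) and bcd (6755842 to 6759466, minus strand) lie on 3R with bam. vas (15061656 to 15074311, plus strand) and grk (8431086 to 8433598, minus strand) lie on 2L, and bgcn and pgc on 2R. The coordinates are those of the BDGP6.54 annotation. bgcn, orb and bcd share no exonic sequence with another gene there, and nos shares 269 bp with CG11779 and 104 bp with Nsun5, both on the opposite strand.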

How the data were processed

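The deposited table gave 1 value per gene and library. The authors mapped reads with STAR 2.7.3a to BDGP6, counted them per gene with HTSeq 0.11.2 and divided the counts by DESeq2 1.20.0 size factors, so the deposited values are a normalised signal, not raw counts. The size factor steps were recovered, and 100% of values were whole reads to within 0.01. The labels describe more than 1 library preparation in the same words for all 12 libraries, so preparation could not be tested as a batch.

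Genes that reached a normalised count of 10 in 3 or more libraries were fitted with limma 3.58.1 (R 4.3.3) on log2(normalised count + 1), with a mean-variance trend, all 12 libraries in 1 model of 4 groups and Benjamini-Hochberg adjustment, two-sided. This pseudocount understates the change of low genes. Calls required an adjusted p below 0.05 with a fold change above 1.5 for genotype or 2 for age, and the adjusted p alone for the interaction. p-values measure the spread between replicate pools of flies. edgeR 4.0.16 and DESeq2 1.42.0 on the recovered reads, other pseudocounts, filters and scalings, a replicate block, the compared groups alone and left-out libraries were the alternatives. Counting strand was not given in the methods or labels. The fit was checked on simulated data.

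The members and gene lists were chosen with earlier results of these data known. The text names all members, Ptth, genes overlapping a member and up to 3 genes most like each member. Up to 4 of the called genes of each list are named, or where none was called, up to 2 with the largest changes. Also named are bnk, Elba3, Mad, sax, gbb, tkv and Dad, which were picked after their values were seen.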

Additional observations from a re-analysis of the deposited data

How the results depend on the processing

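Under the pseudocounts, filters, scalings, tools, replicate block and compared-groups-alone alternatives, 1 member (bam) stayed called in young flies and in the mean over ages. Without the libraries with male transcripts the count was 0 for both, and the log2 ratio of bam to vas in young flies was 0.80 against 0.90 with them. With single libraries left out, between 1 and 4 members were called in young flies and between 1 and 2 in the mean over ages. The cause of these moves was not tested. The genotype comparison in old flies, the change with age in each genotype and the interaction kept 0 members called under each alternative run.

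Changes that were not called turned sign in several cases, given here on the log2 scale. In young flies vas was at -0.037 with quantile scaling, -0.12 scaled to the germline lists, -0.038 with edgeR, -0.0061 with DESeq2 and -0.15 without the male-transcript libraries. bgcn was at 0.051 with quantile scaling and 0.067 without those libraries. The meiosis gene vilya, at -1.05, was at 0.24 with quantile scaling. In old flies orb was at -0.020 with quantile scaling and -0.028 scaled to the germline lists, and grk at 0.0075 with quantile scaling. For the mean over ages orb was at 0.0073 without the male-transcript libraries. With age in wild type, quantile scaling gave 0.0146 for bam and 0.52 for bgcn, and leaving out the male-transcript libraries gave 0.55 for bgcn, -0.22 for pgc, -0.083 for nos and -0.17 for bcd. With age in mutants bgcn was at 0.027 with quantile scaling. For the interaction bgcn was at -0.49 with quantile scaling and -0.66 without the male-transcript libraries, and vas at 0.020 scaled to the germline lists and 0.11 without those libraries. With each library left out in turn, vas ran between -0.081 and 0.12 in young flies, -0.12 and 0.045 in old flies, -0.062 and 0.038 in the mean, -0.12 and 0.078 with age in wild type and -0.16 and 0.038 in the interaction. orb ran between -0.00011 and 0.063 in old flies, -0.047 and 0.013 in the mean and -0.081 and 0.021 with age in mutants. grk ran between -0.094 and 0.079 and nos between -0.014 and 0.22 in old flies. bgcn ran between -0.88 and 0.082 with age in wild type and -0.41 and 0.55 in the interaction, and bam between -0.16 and 0.12 with age in wild type.

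Counts over all genes moved more. The young count of 549 was 115 without the male-transcript libraries, 234 with the compared groups alone and between 297 and 2265 with 1 library left out. The old count of 475 was at its lowest, 297, without old wild type replicate 3, and 309 without old mutant replicate 2. The mean count of 622 was 1094 without young wild type replicate 3. For age, the wild type count of 348 was 885 with DESeq2 and 1515 without young wild type replicate 3, and the mutant count of 206 was 137 with quantile scaling. The interaction count of 18 was 40 without a filter, 8 scaled to the germline lists, 6 with edgeR, 123 with DESeq2, 6 without the male-transcript libraries and between 4 and 201 with 1 library left out. The share called higher was 21.5% in young flies, against 37.1% with quantile scaling and 11.2% scaled to the germline lists. For age in wild type it was 29.0%, against 57.1% with quantile scaling and 12.4% with DESeq2. Scaling to the germline lists moved the median young change of all genes to -0.15.

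Mutant and wild type libraries of the same replicate number correlated at 0.825, -0.87 and 0.879 in young flies and between -0.0624 and 0.103 in old flies. In young flies, replicate 1 held male transcripts in both genotypes, replicate 2 only in wild type and replicate 3 in neither. The main fit did not treat replicate numbers as pairs. With the replicate number as a block, the adjusted p of bam was 0.0029 in young flies, 0.0570 in old flies and 8.40e-04 for the mean, with 506 genes called in young flies. The lowest member was bgcn, with counts near the filter. On simulated data of the young comparison, 25.4% of 1.5-fold and 77.6% of 2-fold changes were called, over 11403 genes. For the old comparison these shares were 29.9% and 68.7%. With age, where a call required a fold change above 2, 34.3% of 2-fold changes were called in wild type and 31.3% in mutants. Of 4-fold changes with age, 80.3% were called in wild type and 74.2% in mutants.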
